A study of Mus musculus with 6 samples.

Results

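The genes described here are 10 heat shock chaperones, Hspa1a, Hspa1b, Hspa8, Hsph1, Hsp90aa1, Hsp90ab1, Dnajb1, Dnaja1, Hspb1 and Hspe1, taken by symbol from the 48587 genes of the counts table. The products of 9 of them act mainly in the cytosol and nucleus, and that of Hspe1 acts in the mitochondrial matrix. They were followed in 4T1 cells, a mouse mammary carcinoma line, by sequencing of total RNA. The question was whether these genes move when METTL7A1 is expressed, beside the chaperones of the endoplasmic reticulum (ER). Earlier work placed the human form of the protein in that compartment. The study behind these data reported that METTL7A1 in 4T1 cells lay partly at the ER and co-precipitated with the ER chaperone HSPA5.

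Heat shock chaperones bind unfolded stretches of other proteins and help them fold, refold or pass on to degradation. HSP70 proteins work in cycles of ATP hydrolysis that J-domain proteins (the HSP40 family) start and that HSP110 proteins help to reset by exchanging the nucleotide. HSP90 takes over partly folded clients such as kinases and steroid receptors. When unfolded proteins gather in the cytosol, heat shock factor 1 (HSF1) forms trimers and binds heat shock elements in the promoters of many of these genes, whereas unfolded proteins in the ER lumen act through separate sensors in the ER membrane.

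The METTL7A1 group was made of 3 libraries from 4T1 cells stably transfected with full-length Mettl7a1 cDNA in the pBICEP-CMV-2 vector, which drives its insert from the CMV promoter and adds a FLAG tag. The mock group was made of 3 libraries from 4T1 cells that carry the empty vector, and METTL7A1 cells were kept under G418 selection. The libraries are described as biological triplicates. Whether each line is a pool or 1 clone is not given in the sources used here, so that p-values measure the spread between these libraries and not between independent transfections.

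Total counts lay between 18386780 and 28459338 in METTL7A1 libraries and between 20409195 and 25112433 in mock libraries. Mettl7a1 itself had 6355, 11358 and 10398 counts in the METTL7A1 libraries and 30, 30 and 29 in the mock libraries. The ribosomal repeat gene AY036118 took up to 4.53% of the counts of a METTL7A1 library and up to 13.1% of those of a mock library, and its removal with the other most abundant genes changed the call of no member that the main test covered. Epithelial markers (Krt8, Krt18, Krt7, Epcam, Cdh1) summed to between 1895 and 2240 cpm (counts per megaread of TMM-scaled library size) in METTL7A1 cells and to between 1710 and 2078 cpm in mock cells. Of 8 markers of leukocytes, endothelium and fibroblasts, 1 passed the abundance filter. These markers summed to between 13.0 and 15.5 cpm in METTL7A1 cells against 6.77 to 7.73 cpm in mock cells, most of it from Cd68, a lysosomal protein of macrophages and other cells (12.8 ± 1.32 against 5.43 ± 0.758 cpm, SD, n = 3), while the leukocyte marker Ptprc was at 0.232 and 0.209 cpm and the macrophage marker Adgre1 at 0.0113 and 0 cpm. In RNA from whole cultures, fewer cells with a transcript and less of it per cell cannot be told apart.

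Expression of METTL7A1 went with higher RNA of 3 cytosolic heat shock genes, the inducible HSP70 gene Hspa1b (1.76-fold), its J-domain partner gene Dnajb1 (1.39-fold) and Dnaja1 (1.16-fold). The abundant chaperone genes Hspa8, Hsp90aa1 and Hsp90ab1, which held between 90.4% and 91.5% of the counts of the 10 genes, did not pass the test, nor did Hsph1 and Hspe1. Hspb1 and Hspa1a were below the abundance filter (at least 1 cpm in at least 3 libraries), so that 8 of the 10 genes were tested. Of these, 3 rose, 0 fell and 5 did not pass an adjusted p of 0.05 (edgeR quasi-likelihood test, Benjamini-Hochberg over 13166 genes). Of all genes tested, 42.1% passed, with 21.1% higher and 21.0% lower in METTL7A1 cells, so that 3 of 8 is near the share of all genes. None of the 8 passed the study's thresholds (adjusted p under 0.01 and a log2 fold change over 1.5 in size), which 2.48% of all genes did. The same 3 genes, Hspa1b, Dnajb1 and Dnaja1, had groups that did not overlap, as had 51.6% of all genes. The log2 fold changes of the 8 genes ran from -0.20 to 0.82 with a median of 0.06, beside a median of -0.03 over all genes tested.

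**Figure D1:**
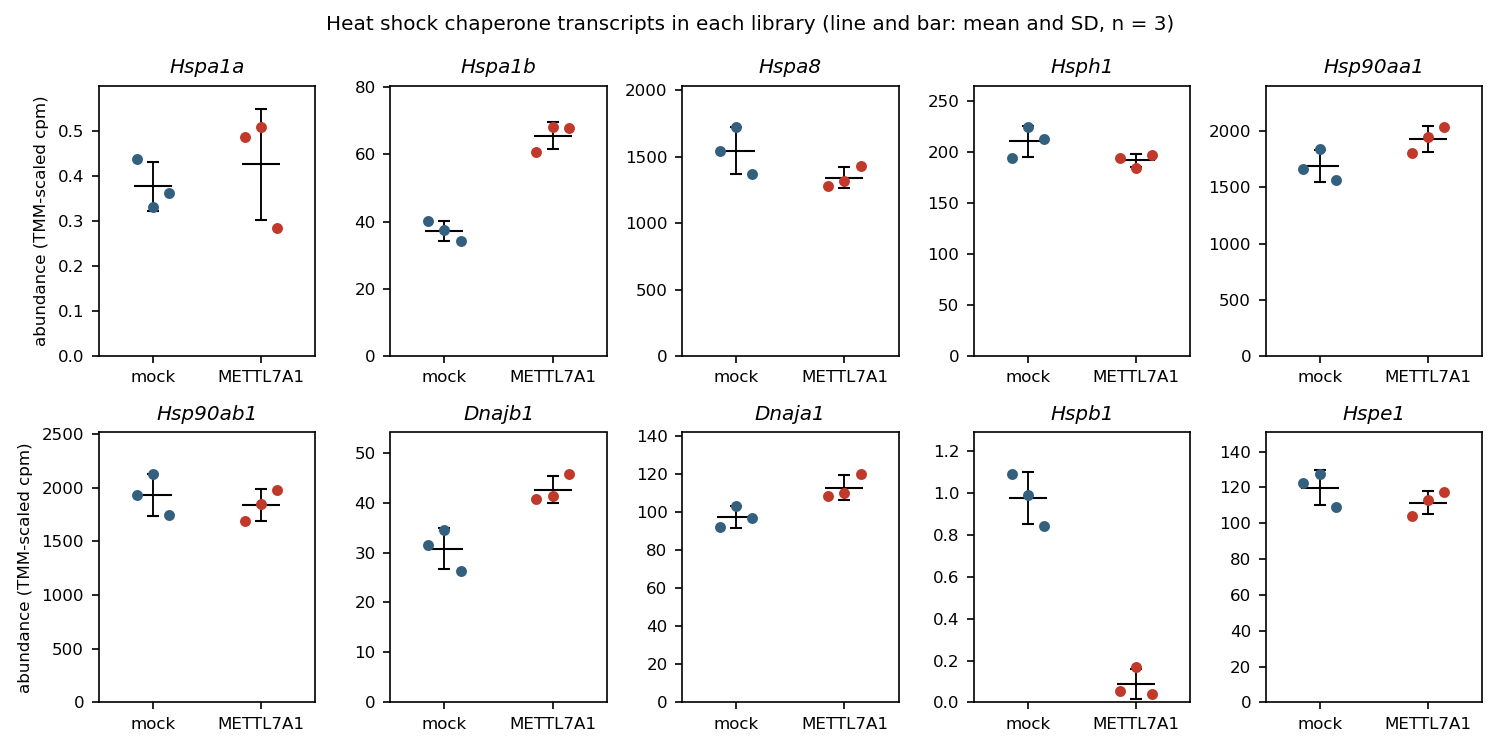
TMM-scaled cpm of the 10 heat shock genes, a panel each with its own axis from 0, in the 3 METTL7A1 (red) and 3 mock (blue) libraries, with lines for the mean and bars for the SD (n = 3). The METTL7A1 points of Hspa1b, Dnajb1 and Dnaja1 lie above all mock points, those of Hspb1 lie below all mock points near the counting limit, and the points of the other 6 genes overlap.

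Hspa1a and Hspa1b encode stress-inducible HSP70 proteins of nearly the same sequence and lie next to each other on chromosome 17 (mm10, minus strand, Hspa1a at 34969190 to 34972156 and Hspa1b at 34956436 to 34959238). Hspa1b had 1129, 2011 and 1670 counts in METTL7A1 replicates 1 to 3, or 60.8, 68.1 and 67.7 cpm. In mock replicates 1 to 3 it had 735, 908 and 851 counts, or 40.2, 37.5 and 34.3 cpm. The lowest METTL7A1 library was well above the highest mock library. Mean abundance was 65.6 ± 4.08 cpm in METTL7A1 and 37.3 ± 2.97 cpm in mock cells (SD, n = 3), a log2 fold change of 0.82 (SE 0.08, 95% interval 0.64 to 1.00, adjusted p = 2.18e-05 by edgeR). At an adjusted p under 0.05 it was called higher under every other scaling, filter, tool, reference and left-out library tried, with log2 fold changes between 0.66 and 0.89, all under the study's threshold of 1.5.

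Hspa1a was near the detection limit. It had 9, 15 and 7 counts in METTL7A1 and 8, 8 and 9 counts in mock libraries, or 0.426 ± 0.123 and 0.377 ± 0.0550 cpm (SD, n = 3). The groups overlapped, and the summed counts of 31 and 25 gave a ratio of 1.15 with a 95% counting interval of 0.656 to 2.03. Of the stretches of 31 bases in the transcripts of Hspa1b, 67.6% also occur in those of Hspa1a, and the sources used here do not say how reads that map to both were counted. The division of reads between both genes is therefore uncertain. With both genes summed to 1 feature the log2 fold change was 0.81 (adjusted p = 2.22e-05 by edgeR).

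The letters before the start sites of both genes show how alike they are: over the 250 bases before the start, 247 are the same. Promoters were taken from RefSeq (build GRCm38.p6) and matched 7 of the 10 genes by symbol, not Hspa8, Hsp90aa1 and Hsp90ab1. They were searched on both strands for 3 inverted heat shock units, written GAANNTTCNNGAA on the strand read and TTCNNGAANNTTC on the other, in a window from 250 bases before to 50 bases after each start. Every exact match also holds the shorter pair GAANNTTC or TTCNNGAA. Of 32851 promoters of that length, 0.603% held an exact match, 7.22% a match with at most 1 of the 9 fixed letters changed, and 15.1% the shorter pair. The 150 bases before the start are shown 5′ to 3′ on the strand of the gene for the inducible HSP70 genes and the J-domain genes that rose, with matches of at most 1 changed letter in capitals.
Hspa1a, chr17:34972157-34972306, minus strand: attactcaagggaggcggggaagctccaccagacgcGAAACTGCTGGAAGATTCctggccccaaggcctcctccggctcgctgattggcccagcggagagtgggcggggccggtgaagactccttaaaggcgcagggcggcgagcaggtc
Hspa1b, chr17:34959239-34959388, minus strand: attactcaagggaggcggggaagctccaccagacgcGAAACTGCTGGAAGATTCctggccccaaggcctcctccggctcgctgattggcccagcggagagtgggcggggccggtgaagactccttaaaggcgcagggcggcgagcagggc
Dnajb1, chr8:83608025-83608174, plus strand: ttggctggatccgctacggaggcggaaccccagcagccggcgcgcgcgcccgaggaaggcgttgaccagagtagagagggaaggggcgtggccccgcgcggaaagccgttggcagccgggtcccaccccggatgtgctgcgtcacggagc
Dnaja1, first start, chr4:40722318-40722467, plus strand: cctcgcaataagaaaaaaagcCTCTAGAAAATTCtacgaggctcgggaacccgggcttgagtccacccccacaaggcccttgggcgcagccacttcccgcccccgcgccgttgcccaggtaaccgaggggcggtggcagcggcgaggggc
Hspa1a and Hspa1b share the same pair of overlapping 1-letter matches, which begin 114 and 109 bases before the start. Dnajb1, which rose, had no match in either of its windows, and Dnaja1 had 1 such match, 129 bases before the first of its 3 starts. A match is a run of letters and was not tested for binding, and its absence says only that the letters are not in the window.

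Hspa8 encodes the constitutive HSP70 of the cytosol (HSC70), which folds new proteins and uncoats clathrin vesicles (chromosome 9, 40800984 to 40805200, plus strand). Its abundance was 1282, 1316 and 1429 cpm in METTL7A1 and 1543, 1723 and 1374 cpm in mock libraries. The groups overlapped, since mock replicate 3 lay below METTL7A1 replicate 3. The means of 1342 ± 76.9 and 1547 ± 174 cpm (SD, n = 3) gave a log2 fold change of -0.20 (SE 0.11, 95% interval -0.44 to 0.03, adjusted p = 0.152 by edgeR). Without mock replicate 3 it was called lower (-0.27, adjusted p = 0.0495 by edgeR). The row Gm15459, a near-identical copy, held 9542 to 16538 counts per library, and the 7 rows that share most of their sequence with Hspa8 held between 29.9% and 30.6% of the combined counts in every library. These rows include the small RNA genes Snord14c, Snord14d and Snord14e, at 152 to 400 counts each. Summed with the 7 rows, Hspa8 had a log2 fold change of -0.21 (adjusted p = 0.168 by edgeR).

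Hsph1 encodes HSP105, an HSP110 protein that acts as nucleotide exchange factor of HSP70 and is itself a classical heat shock target (chromosome 5, 149614287 to 149636338, minus strand). It had 194.5, 185 and 197 cpm in METTL7A1 and 194.3, 224.5 and 213 cpm in mock libraries. Mock replicate 1 lay within the METTL7A1 range, so that the groups overlapped. The log2 fold change was -0.13 (SE 0.08, 95% interval -0.30 to 0.03, adjusted p = 0.183 by edgeR). The direction depends on the reference, because the 40 nearest abundant genes on its chromosome had a median of -0.40. Relative to these neighbours Hsph1 had a value of 0.27 (adjusted p = 0.0210 by edgeR with that offset). The median was entered as a fixed value, so that p-values with the offset leave out its uncertainty.

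Dnajb1 encodes the J-domain protein HSP40 that works with inducible HSP70 in refolding (chromosome 8, 83608193 to 83612653, plus strand). It had 754, 1223 and 1129 counts in METTL7A1 libraries, or 40.6, 41.4 and 45.8 cpm. In mock libraries it had 576, 834 and 656 counts, or 31.5, 34.4 and 26.4 cpm. Every METTL7A1 library was above every mock library. The log2 fold change was 0.47 (SE 0.10, 95% interval 0.25 to 0.69, adjusted p = 0.00306 by edgeR), and at an adjusted p under 0.05 it was called higher under every other scaling, filter, tool, reference and left-out library tried, between 0.38 and 0.72, also under the study's threshold of 1.5.

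Dnaja1 encodes another cytosolic J-domain protein, farnesylated and abundant in unstressed cells (chromosome 4, 40722480 to 40737149, plus strand). Its abundance was 108, 110 and 120 cpm in METTL7A1 and 92.1, 103 and 96.9 cpm in mock libraries. The groups did not overlap, although METTL7A1 replicate 1 and mock replicate 2 were close. The log2 fold change of 0.21 (SE 0.07, 95% interval 0.05 to 0.37, adjusted p = 0.0371 by edgeR) was the smallest of the 3 that were called. The call was lost without METTL7A1 replicate 2 (0.23, adjusted p = 0.0915), without METTL7A1 replicate 3 (0.17, adjusted p = 0.131) and without mock replicate 1 (0.19, adjusted p = 0.106), all by edgeR. Its end overlaps that of Smu1 on the opposite strand by 608 bases, and the table counts by strand.

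Hsp90aa1 and Hsp90ab1 encode the inducible and the constitutive cytosolic HSP90 (chromosome 12, 110690605 to 110696395, and chromosome 17, 45567775 to 45573271, both on the minus strand). Hsp90aa1 had 1811, 1951 and 2037 cpm in METTL7A1 and 1665, 1846 and 1567 cpm in mock libraries. Hsp90ab1 had 1687, 1849 and 1984 cpm in METTL7A1 and 1929, 2132 and 1745 cpm in mock libraries. For both genes the groups overlapped. The log2 fold change of Hsp90aa1 was 0.19 (SE 0.11, 95% interval -0.04 to 0.42, adjusted p = 0.169 by edgeR), and it was called higher by DESeq2 (0.20, adjusted p = 0.0375) and relative to its neighbours (0.44, adjusted p = 0.00845 by edgeR). That of Hsp90ab1 was -0.07 (SE 0.11, 95% interval -0.32 to 0.18, adjusted p = 0.639 by edgeR), and it turned to 0.14 relative to its neighbours.

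Ratios of counts within a library do not depend on how libraries are scaled. The ratio of Hsp90aa1 to Hsp90ab1 was 1.07, 1.06 and 1.03 in METTL7A1 and 0.863, 0.866 and 0.898 in mock libraries, above 1 in each METTL7A1 library and below 1 in each mock library. It differed by 0.26 on the log2 scale, or 1.20-fold. The ratio of Hspa1a plus Hspa1b to Hspa8 was 0.0478, 0.0521 and 0.0476 in METTL7A1 and 0.0263, 0.0219 and 0.0252 in mock libraries, a log2 difference of 1.01 or 2.01-fold. That of Dnajb1 to Hspa8 was 0.0317, 0.0315 and 0.0321 against 0.0204, 0.0200 and 0.0192, a log2 difference of 0.68. In these ratios the inducible or partner gene had a larger part in every METTL7A1 library than in any mock library. The ratios over Hspa8 share that denominator, and Hspa1b and Dnajb1 were each called higher on their own, so that these ratios are not separate evidence. Of all single genes tested, 51.6% also had groups that did not overlap, and the share among other gene pairs was not computed. Of the 4 ratios computed, the 2 with Dnajb1 and Hspe1 were added after values had been seen, and each of the 4 separated the groups. The exact two-sided permutation p was 0.1 for each, also after adjustment over the 4, and 0.1 is the smallest value that 3 against 3 libraries can give.

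**Figure D2:**
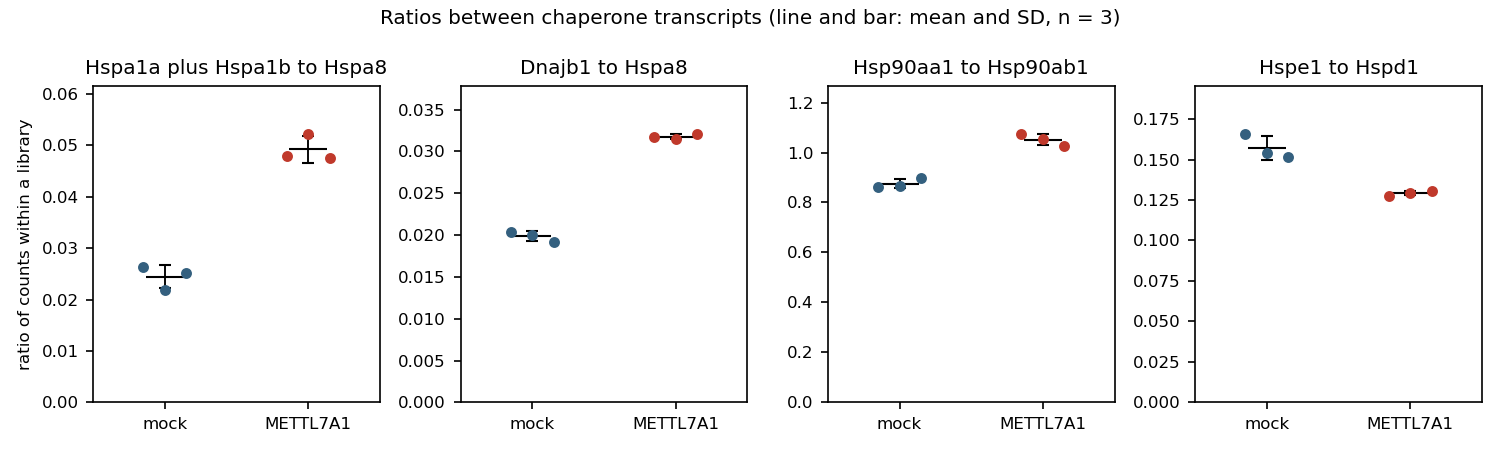
Ratio of read counts within each library for 4 pairs of chaperone genes, a panel each with its own axis from 0, with METTL7A1 (red) and mock (blue) libraries as points, lines for the mean and bars for the SD (n = 3). The METTL7A1 points lie above the mock points for Hsp90aa1 to Hsp90ab1, Hspa1a plus Hspa1b to Hspa8 and Dnajb1 to Hspa8, and below them for Hspe1 to Hspd1.

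Hspb1 encodes a small heat shock protein (HSP25 in the mouse) that holds unfolded proteins without ATP and protects actin filaments (chromosome 5, 135887919 to 135889563, plus strand). It was nearly silent in these cells, with 1, 5 and 1 counts in METTL7A1 and 20, 24 and 21 counts in mock libraries. Each METTL7A1 library had fewer counts than any mock library, at 0.0879 ± 0.0708 and 0.976 ± 0.125 cpm (SD, n = 3). Only mock replicate 1, at 1.09 cpm, passed 1 cpm, so that Hspb1 was not in the main test. The summed counts of 7 and 65 gave an abundance 10.0-fold lower in METTL7A1 cells, with a 95% counting interval of 4.6 to 25.9 that covers counting error only. Replicate 2 held 5 of the 7 METTL7A1 counts, and without it the 2 counts left gave 20.8-fold, with an interval of 5.54 to 176. It was tested in 2 alternative settings and called lower in both. Without the abundance filter its log2 fold change was -3.24 (SE 0.51, adjusted p = 7.33e-09 by edgeR). Adjusted p-values of that setting cannot be set beside those of the main test. Hspa1b had 3.87e-18 there against 2.18e-05, although Dnaja1 changed little (0.0316 against 0.0371, all by edgeR). Without the 20 most abundant genes the log2 fold change of Hspb1 was -3.25 (SE 0.46, adjusted p = 0.000225 by edgeR). In the latter setting Hspb1 passed the filter only through the mock libraries, where it was higher, so that this call adds no separate support.

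Hspe1 encodes HSP10, the lid of the mitochondrial chaperonin HSP60 (chromosome 1, 55088132 to 55091307, plus strand). It had 104, 113 and 117 cpm in METTL7A1 and 123, 128 and 109 cpm in mock libraries. The groups overlapped, and the log2 fold change was -0.10 (SE 0.08, 95% interval -0.28 to 0.07, adjusted p = 0.333 by edgeR). Hspd1, which encodes HSP60 and shares a divergent promoter with Hspe1, had a log2 fold change of 0.18 (SE 0.09, adjusted p = 0.140 by edgeR). The ratio of Hspe1 to Hspd1 was 0.128, 0.130 and 0.130 in METTL7A1 and 0.166, 0.154 and 0.152 in mock libraries, a log2 difference of -0.28 between groups that did not overlap. The promoter of Hspe1 is shown because it held the exact matches before a start site, and that of Hspb1 because this member had fewer counts in METTL7A1 cells.
Hspe1, chr1:55087998-55088147, plus strand: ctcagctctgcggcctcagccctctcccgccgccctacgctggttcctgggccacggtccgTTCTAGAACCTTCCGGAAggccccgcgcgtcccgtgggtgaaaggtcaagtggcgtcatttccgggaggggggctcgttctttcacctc
Hspb1, chr5:135887769-135887918, plus strand: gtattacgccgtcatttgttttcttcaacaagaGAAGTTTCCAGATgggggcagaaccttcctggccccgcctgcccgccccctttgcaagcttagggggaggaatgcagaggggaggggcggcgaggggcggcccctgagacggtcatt
Hspe1 held a pair of overlapping exact matches, 89 and 84 bases before its start, and Hspb1 a 1-letter match 117 bases before its start. Hsph1 held an exact match only after its start, so that 2 of the 7 matched genes had an exact match and 6 of 7 at least a 1-letter match. The genes with exact matches, Hspe1 and Hsph1, were not called in the main test, although Hsph1 was called higher relative to its chromosome neighbours. Whether matches go with changes in RNA was not tested.

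Per kilobase of exon, the order of the 10 genes in mock cells began with Hsp90ab1 at 768 ± 76.8, Hspa8 at 646 ± 72.9 and Hsp90aa1 at 501 ± 41.8 cpm per kb (SD, n = 3). Hspe1 followed at 155 ± 12.5, Hsph1 at 49.9 ± 3.60, Dnaja1 at 16.9 ± 0.974, Hspa1b at 13.3 ± 1.06 and Dnajb1 at 9.60 ± 1.27 cpm per kb, with Hspb1 and Hspa1a last. Of neighbours in this order, Hsp90ab1 and Hspa8 overlapped between libraries. In METTL7A1 cells Hspa1b, at 23.4 ± 1.46 cpm per kb, stood before Dnaja1 at 19.5 ± 1.12, and Hsp90aa1, at 572 ± 33.8, was level with Hspa8 at 561 ± 32.1, within their spread. How reads shared between genes were counted is not given, so that these places are uncertain. Of the stretches of 31 bases, 68.1% of Hspa1b, 22.6% of Dnaja1, 51.5% of Hsp90aa1 and 44.8% of Hspa8 also occur in other genes. This share ran from 0% for Hsph1 to 70.1% for Hspa1a. The place of Hspa8 depends on the 7 rows that share most of their sequence with it, small RNA genes among them. With their counts added over the exon length of Hspa8 its level was 926 ± 104 cpm per kb in mock and 802 ± 42.4 cpm per kb in METTL7A1 cells (SD, n = 3), above the means of both HSP90 genes. The inducible HSP70 RNA thus remained far below its constitutive relative in both groups.

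The genes near a member moved as well. Around Hspa1b the 40 nearest abundant genes had a median log2 fold change of 0.16, and the corresponding value was -0.25 around Dnajb1, -0.06 around Dnaja1, -0.25 around Hsp90aa1 and -0.21 around Hsp90ab1. Of those 40 neighbours, 3 had a larger value than Hspa1b, 1 a larger value than Dnajb1 and 10 a larger value than Dnaja1. With the median of the neighbours taken off each gene as a fixed value, 5 of the 8 tested members were called higher (Hspa1b, Dnajb1, Dnaja1, Hsph1 and Hsp90aa1) and 0 lower. In that setting 31.5% of all genes were called, 18.1% higher and 13.4% lower. The part of chromosome position in these values was not tested.

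**Figure D3:**
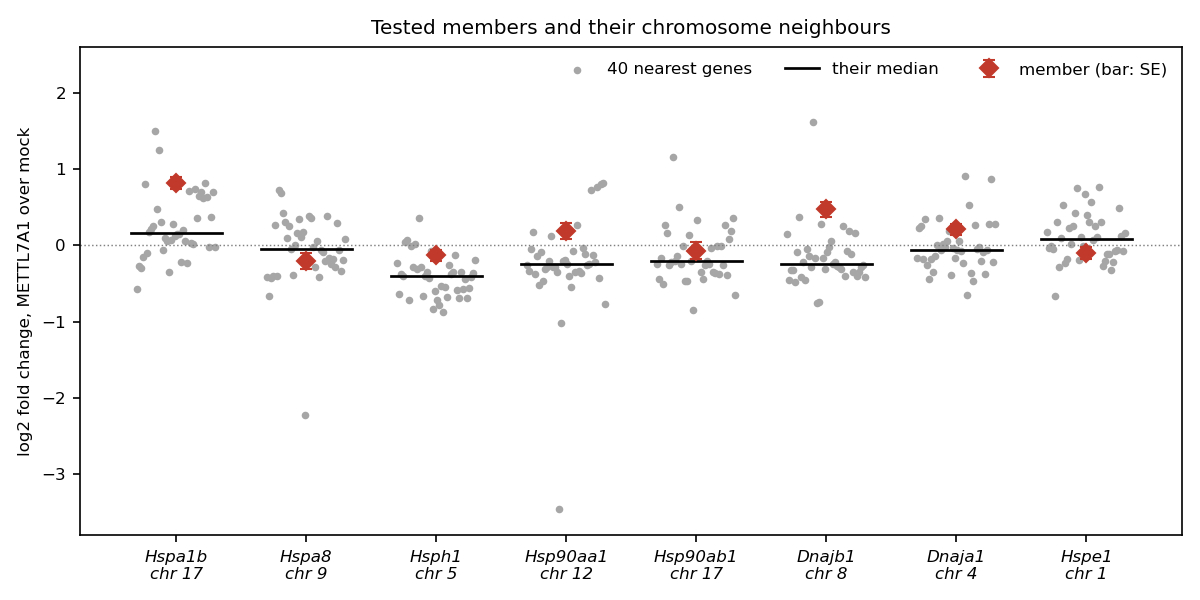
Log2 fold change, METTL7A1 against mock, of each of the 8 tested heat shock genes (diamonds, bars for the SE) and of its 40 nearest abundant neighbours on the chromosome (grey points, spread sideways for legibility), with a line for their median. Dnajb1 has 1 and Hspa1b has 3 neighbours above it, whereas Hspa8, with 27, and Hspe1, with 29, lie below the middle of theirs.

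The factors that act on heat shock genes changed in both directions. Of 4 listed genes 3 were tested, of which 2 rose and 1 fell. Over all genes tested, 42.1% were called, 21.1% higher and 21.0% lower. Hsf1, the main heat shock factor, rose by 0.21 on the log2 scale (SE 0.07, adjusted p = 0.0326 by edgeR), and Hsf2, a factor that forms mixed trimers with it, rose by 0.42 (SE 0.07, adjusted p = 0.000932 by edgeR). Hsbp1, whose product binds the HSF1 trimer and holds it back, had a log2 fold change of -0.40 (SE 0.08, adjusted p = 0.00196 by edgeR). Hsf4 was below the filter. Relative to their 40 neighbours Hsf1 and Hsf2 lost their calls, at 0.12 (adjusted p = 0.231) and -0.06 (adjusted p = 0.566), and Hsbp1 kept its call at -0.23 (adjusted p = 0.0440), by edgeR with that offset. Hsf1 also lost its call without METTL7A1 replicate 2 (0.25, adjusted p = 0.0550), without METTL7A1 replicate 3 (0.19, adjusted p = 0.102) and without mock replicate 2 (0.19, adjusted p = 0.109), by edgeR. With the replicate number as a block the call of Hsf1 was lost too (0.21, adjusted p = 0.0634 by edgeR). RNA levels say nothing of whether HSF1 was bound to DNA.

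In the next 4 lists of other cytosolic chaperone genes, called genes went in both directions. Their counts stand beside 21.1% of all genes tested called higher and 21.0% called lower. Of the other HSP70 and HSP110 genes, 4 of 6 were tested and 1 fell, Hspa4, an HSP110 relative (-0.28, adjusted p = 0.0184). Of 9 other J-domain genes 1 rose, the neuronal form Dnajb2 (0.42, adjusted p = 0.00156), and 3 fell, Dnajc2, a ribosome-bound form (-0.48, adjusted p = 0.000464), Dnajb5 (-0.59, adjusted p = 0.0387) and Dnaja2 (-0.19, adjusted p = 0.0497). Of 20 co-chaperones of HSP70 and HSP90, 3 rose and 5 fell. The 4 with the smallest p were St13, the HSP70-interacting protein HIP (0.63, adjusted p = 0.000199), the nucleotide exchange factor Hspbp1 (-0.48, adjusted p = 0.00266), Ahsa1, which activates the HSP90 ATPase (-0.47, adjusted p = 0.00274), and the HSP90 partner Sugt1 (-0.35, adjusted p = 0.00377). Of 14 subunits of the chaperonin CCT and of prefoldin, which fold actin and tubulin, 2 rose and 3 fell, the 4 with the smallest p being Pfdn1 (0.28), Cct4 (-0.31), Cct2 (0.28) and Cct3 (-0.28). All adjusted p-values in these lists come from edgeR. Several of these calls were lost relative to the 40 neighbours, with values of 0.02 for Ahsa1, -0.01 for Sugt1, -0.01 for Dnaja2, -0.55 for Dnajb5, -0.03 for Pfdn1, -0.13 for Cct2 and -0.25 for Cct3, so that Pfdn1, Cct2 and Ahsa1 also changed sign. Hspa4 lost its call without METTL7A1 replicate 2 (-0.26) or mock replicate 2 (-0.22), and Cct4 without mock replicate 1 (-0.28) or mock replicate 2 (-0.26). Cct2 lost it without METTL7A1 replicate 2 (0.26), METTL7A1 replicate 3 (0.26), mock replicate 1 (0.31) or mock replicate 3 (0.22), and Cct3 without METTL7A1 replicate 1 (-0.22), METTL7A1 replicate 2 (-0.28), mock replicate 1 (-0.23) or mock replicate 2 (-0.23). Dnaja2 kept its call only when mock replicate 3 was the library left out, and Dnajb5 only when it was METTL7A1 replicate 3, their values otherwise lying between -0.21 and -0.15 and between -0.64 and -0.46.

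Of 6 other small heat shock protein genes, 4 were tested and 2 rose, beside 21.1% of all genes tested called higher. Hspb8, whose product works with BAG3 in the removal of misfolded proteins by autophagy, was at 54.6 ± 5.32 cpm with METTL7A1 and at 16.2 ± 1.595 cpm without it (SD, n = 3). Its log2 fold change of 1.75 (SE 0.10, adjusted p = 4.4e-07 by edgeR) was the only one of all chaperone lists past the study's thresholds. Of all genes tested, 2.48% passed those thresholds. Cryab, encoding alpha B-crystallin, rose by 0.46 on the log2 scale (SE 0.13, adjusted p = 0.0157 by edgeR), a call lost without METTL7A1 replicate 2 (0.47), METTL7A1 replicate 3 (0.39) or mock replicate 1 (0.42). Hspb8 was thus higher, and its relative Hspb1 lower, in METTL7A1 cells.

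Of 13 other mitochondrial chaperone and protease genes, 4 rose and 1 fell, with a median of 0.00 on the log2 scale. The 4 with the smallest p were the HSP70 exchange factor Grpel2 (0.48, adjusted p = 0.000641), the inner membrane protease subunit Afg3l2 (0.37, adjusted p = 0.00232), Hspa9, the mitochondrial HSP70 (0.37, adjusted p = 0.00686), and Grpel1, a relative of Grpel2 (-0.29, adjusted p = 0.00907), all by edgeR. Relative to the 40 neighbours, Grpel2 (0.19), Afg3l2 (0.04) and Hspa9 (0.05) lost their calls and Grpel1 (-0.22) kept its call. Over the 7 lists of other cytosolic and mitochondrial genes together, 67 of 72 genes were tested, 14 rose and 14 fell, and the median log2 fold change was 0.02. The 28 called of 67 are near the share of all genes tested, of which 42.1% were called, 21.1% higher and 21.0% lower.

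All 19 ER chaperone and folding genes were tested, of which 9 rose, 0 fell and 10 did not pass, with a median of 0.26. The share called, 9 of 19, lies beside 42.1% of all genes, and the share higher beside 21.1%. Hsp90b1, the HSP90 of the ER, went from 1174 ± 96.3 to 2462 ± 176 cpm (log2 fold change 1.07, SE 0.11, adjusted p = 2.40e-05 by edgeR). Hspa5, the HSP70 of the ER (BiP), went from 1734 ± 166 to 2606 ± 172 cpm (0.59, SE 0.11, adjusted p = 0.00166 by edgeR). Ero1lb (1.09), Sil1 (0.75), Pdia3 (0.62) and Creld2 (0.46), which serve oxidative folding and BiP, rose too. Relative to the 40 neighbours Creld2 lost its call (0.18, adjusted p = 0.128), and Hsp90b1 was at 0.58 (adjusted p = 0.00204), by edgeR with that offset. Of the paralogous pairs, the HSP90 gene of the ER rose while neither cytosolic HSP90 gene passed the main test (Hsp90aa1 passed with DESeq2 and relative to its neighbours, as given above), and for HSP70 both Hspa5 of the ER and Hspa1b of the cytosol rose while Hspa8 did not pass. The difference between the ER list and the heat shock members was not tested.

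**Figure D4:**
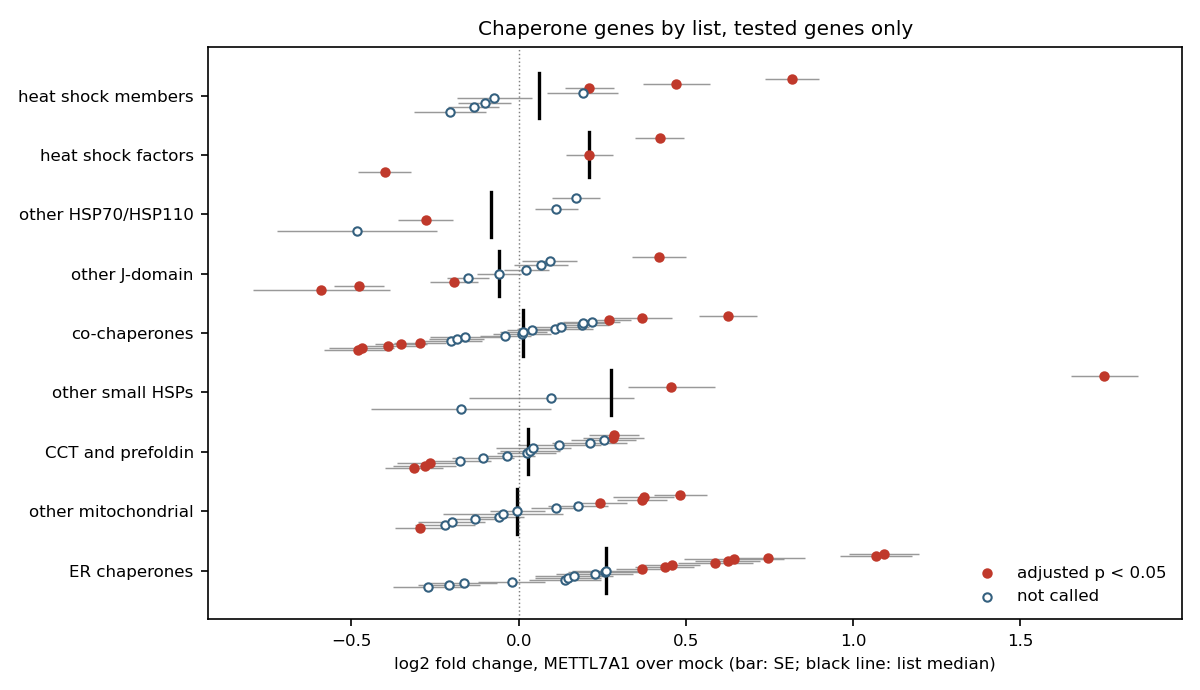
Log2 fold change, METTL7A1 against mock, of every tested gene in the list of heat shock members, the 7 lists of other cytosolic and mitochondrial chaperone genes and the ER list, with called genes (adjusted p under 0.05, edgeR) as filled points, bars for the SE and the median of each list as a line. The ER list has 9 called genes, all above 0, the heat shock members have 3, all above 0, and Hspb8 at 1.75 is the highest value.

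Replicates of a group also differed in a shared way. The median of the 8 tested members, relative to the mock mean on the log2 scale, was -0.01, 0.06 and 0.16 in METTL7A1 replicates 1 to 3 and 0.00, 0.11 and -0.13 in mock replicates 1 to 3, so that the groups overlapped. The median of the 19 ER genes was 0.06, 0.29 and 0.46 in METTL7A1 and -0.01, 0.12 and -0.11 in mock replicates, which overlapped as well. METTL7A1 replicate 1 was the lowest and METTL7A1 replicate 3 the highest of its group in both lists. Without METTL7A1 replicate 1, 13 of the 19 ER genes were called in place of 9, and 3 of the heat shock members as before. In that setting 2704 of all 12898 genes tested were called higher and 2669 lower.

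By a fixed rule, the genes most like the mean of Hspa1a, Hspa1b, Dnajb1 and Hsph1 over the 6 libraries were Vps41 (Pearson r = 0.991), Parp12 (0.988), Zbtb11 (0.987), Pnpla7 (0.986) and Rap1gap (0.983), out of 10552 genes outside the lists. These values describe 6 libraries that share the same 2 groups, and carry no test. The mean gave equal weight to Hspa1a, at only 7 to 15 counts per library, and to Hsph1, which was not called. Within the METTL7A1 group all 5 genes were lowest in replicate 3, as was Hspa1a, whereas Hspa1b, Dnajb1 and Hsph1 were not. The likeness may therefore follow counting noise of Hspa1a, which was not tested. Of the 5 genes, Parp12, Pnpla7 and Rap1gap were called higher in METTL7A1 cells, with log2 fold changes of 0.28, 0.54 and 0.39.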

How the data were processed

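Total RNA of 4T1 cells was sequenced in 6 stranded libraries depleted of ribosomal RNA. The authors trimmed reads with BBDuk, aligned them to mm10 with STAR 2.5.3a and ran featureCounts. The deposited values are raw counts of each gene, not normalized by the authors, listed with exon coordinates and exon length. The treatment of multi-mapping reads and the strand setting are not given in the sources used here. AY036118 lies inside Gm42418 on the opposite strand and held 92294 counts or more in every library, which needs counting by strand. Groups came from the sample titles.

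The analysis used edgeR 4.0.16 (R 4.3.3) with these settings: genes of at least 1 cpm in at least 3 libraries (13166 genes), TMM scaling, quasi-likelihood test without covariates, Benjamini-Hochberg adjustment over all genes tested. A gene was called at an adjusted p under 0.05. The study's threshold of 1.5 was read as a log2 value. SE is the size of the log2 fold change over the root of F. Abundances are TMM-scaled cpm. Counting intervals are exact conditional binomial intervals at 95%.

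The members and lists were chosen with earlier results of these data known. All 10 members are named, and of each other list at most 4 called genes (6 for ER genes), those with the smallest p. The 5 most alike genes had an average log2 cpm over 2. Alternatives were RLE and upper quartile scaling, no filter, a minimum of 10 counts per library, the 20 most abundant genes removed, a replicate block, DESeq2 1.42.0, limma voom 3.58.1, an offset of the median of 40 chromosome neighbours, each library left out, and copies summed. Summing rows by shared 31-base stretches (GENCODE M21 transcripts), the level of Hspa8 with such rows, Hspb1 with each library left out, the other 2 ratios and the promoter search were added after seeing the data. The tests were tested on simulated data first.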

Additional observations from a re-analysis of the deposited data

How the results depend on the processing

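Of the 8 tested members, 3 were called, all higher. With the neighbour offset, 5 were called and 5 were higher (31.5% of all genes were called and 18.1% higher), and 16 rather than 28 genes of the other 7 lists were called; at the study's thresholds 0 members were called. The same offset turned Hsph1 to 0.27, Hsp90ab1 to 0.14, Dnajc3 to 0.11 and Pdia6 to 0.48. Pdia6, at -0.02 in the main test, was also 0.016 without the abundance filter and ran from -0.094 to 0.069 with each library left out. The log2 ratio of Hspa1a plus Hspa1b to Hspa8 ran from 0.93 to 1.06 with each library left out. Of the ER genes, 0 were called lower in the main test, and P4hb and Hyou1 were called lower by DESeq2 and without mock replicate 3, and P4hb with upper quartile scaling. In the other direction, Manf was called higher in 7 and Calr in 5 of 15 alternatives, and Dnajb9, Dnajb11 and Serpinh1 in 1 each. The cause of these shifts was not tested. With the replicate number as a replicate block, 4810 rather than 5537 genes and 2 rather than 3 members were called, Dnaja1 being lost (0.21, adjusted p = 0.0671 by edgeR), and the log2 ratios stayed at 0.26 and 1.01. Sample titles do not say whether same-numbered samples were handled together. Deviations of same-numbered libraries correlated at -0.15, 0.20 and -0.37, which cannot settle it with 3 libraries per group. Hspa1b and Dnajb1 kept their calls at an adjusted p under 0.05 in all alternatives run, but not at the study's thresholds. Depth limits Hspa1a and Hspb1, for which 3 counts correspond to 0.102 to 0.164 cpm.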
